A study of Mus musculus with 2 samples.

Results

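The regions described here were 1000 distal chromatin accessibility peaks that were most open, relative to all other nuclei, in visceral endoderm nuclei of mouse embryos at E7.0. They were chosen by their measured values, in 2 steps. First, a class of 650 nuclei was taken as those with the highest mean of ln(1 + UMIs per 10000) over Cubn, A1cf, Abcc2, Slc2a2 and Aass, among the 11605 barcodes with 3000 to 30000 RNA UMIs and at least 2000 peak counts. Second, peaks on autosomes that lay more than 1000 bp from every gene start in the files and held at least 100 counts in the class were ranked by fold. The fold was the peak's counts per 1000000 peak counts (CPM) in the class divided by its CPM in the other 10955 barcodes of that range, with a floor of 3 counts. Of 229480 deposited peaks, 199715 were distal and autosomal, 13483 of those reached 100 class counts (the eligible peaks), and the 1000 with the highest fold became the members, 7.42% of the eligible peaks. For 12548 genes the files give a range of starts, of which only the lowest and highest positions could be used, and 90 members lay inside such a range.

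Chromatin accessibility and nuclear RNA had been read from the same nuclei with the 10x Genomics multiome assay, with 1 library for each assay. Per the labels' protocols the nuclei came from embryos collected at E7.0 and pooled, with no treatment named, so nuclei cannot be assigned to an embryo and nothing here has a biological replicate. The labels conflicted: sections of the small intestine and distal colon, goblet cells and the strain RedMUC298trTg appear under tissue, cell type and strain, against the title, age and protocol. Muc2, the main goblet cell mucin, had 1 UMI in the whole class and the goblet peptide Tff3 had 0, which allows up to 0.319 RNA CPM (3 UMIs of the class total), while 832 of the 866 UMIs on the goblet and intestinal list were from Vil1, a microvillus gene that visceral endoderm also uses.

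Visceral endoderm is the absorptive epithelium that wraps the early embryo before a placenta works. Over the extraembryonic region it takes up maternal protein through the receptors cubilin and megalin, and it secretes apolipoproteins and other carriers that the liver makes later. A part over the epiblast, the anterior visceral endoderm, instead secretes inhibitors that pattern the embryo. Distal peaks are stretches of open chromatin away from gene starts, where enhancers are found, and the gene that such an element acts on need not be the nearest.

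The label was checked against RNA that the class rule did not use. All 12 genes of a visceral endoderm list (Ttr, Apob, Apoa1, Apoa4, Apom, Afp, Amn, Lrp2, Dab2, Hnf4a, Trf and Rbp4) were at least 2-fold higher in the class. Together they made up 11240 RNA CPM (UMIs per 1000000 UMIs of the group) in the class and 2159 in the other nuclei. Of 6 embryonic and anterior visceral endoderm genes, 5 were lower in the class, while Amot was higher (1172 against 624) and brought the list's sum to 1.45 times that of the other nuclei. Cer1 stood at 6.71 RNA CPM against 37.1 in the other nuclei, Lefty1 at 3.09 against 23.2 and Hhex at 7.03 against 19.9. The parietal endoderm list was 1.81 times as high in the class, with Col4a1 at 2.59 times and Col4a2 at 2.54 times, and Thbd at 0.213 against 1.30 RNA CPM. The class had a median of 13730 UMIs and 19880 peak counts per nucleus, the other nuclei 11240 and 19440. The doublet caller marked 16 class nuclei (2.46%) and 707 other nuclei (6.45%).

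The deposited files hold peak coordinates but no bases, and sequence could be shown only where a RefSeq start window (250 bases before to 50 after a start, build GRCm38.p6) lay wholly inside a member. That was so for 11 windows in 10 members, all of them starts of genes that RefSeq lists as long non-coding RNAs, with no start of the files' own gene table within 1000 bp. In all, 12 members (1.20%, exact 95% binomial interval 0.622 to 2.09%) held a RefSeq start, against 394 of the other 12483 eligible peaks (3.16%, 2.86 to 3.48%). The 6 below were picked after their letters were seen: 5 that held a match to 1 of 14 motifs searched, and Gm31037, which shares a run of members near Maf with Gm30925. Capitals mark the match, and each is written 5′ to 3′ on the strand named.
Gm39606 (chr11:20452826-20453125, plus strand, SOX match ACAATGG): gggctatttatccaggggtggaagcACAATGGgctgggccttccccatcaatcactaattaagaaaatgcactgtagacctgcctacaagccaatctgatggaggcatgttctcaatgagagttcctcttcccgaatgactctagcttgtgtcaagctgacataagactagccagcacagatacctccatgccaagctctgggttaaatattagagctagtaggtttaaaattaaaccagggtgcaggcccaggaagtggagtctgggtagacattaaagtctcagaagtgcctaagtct
Gm32546 (chr2:136456723-136457022, minus strand, FOXA match TGTTTAC): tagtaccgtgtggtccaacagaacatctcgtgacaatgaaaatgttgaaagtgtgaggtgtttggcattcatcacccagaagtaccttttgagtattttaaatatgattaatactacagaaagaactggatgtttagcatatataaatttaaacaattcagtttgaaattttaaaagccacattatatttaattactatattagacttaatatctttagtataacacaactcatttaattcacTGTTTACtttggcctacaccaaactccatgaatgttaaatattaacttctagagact
Gm32917 (chr11:84951014-84951313, minus strand, GATA match AGATAA): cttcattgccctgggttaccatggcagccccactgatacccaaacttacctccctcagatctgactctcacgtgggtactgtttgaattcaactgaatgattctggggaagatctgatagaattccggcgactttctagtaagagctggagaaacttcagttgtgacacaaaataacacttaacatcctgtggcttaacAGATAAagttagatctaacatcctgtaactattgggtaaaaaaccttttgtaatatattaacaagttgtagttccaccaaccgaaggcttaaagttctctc
Gm36309 (chr17:6728448-6728747, minus strand, TEAD match CATTCC): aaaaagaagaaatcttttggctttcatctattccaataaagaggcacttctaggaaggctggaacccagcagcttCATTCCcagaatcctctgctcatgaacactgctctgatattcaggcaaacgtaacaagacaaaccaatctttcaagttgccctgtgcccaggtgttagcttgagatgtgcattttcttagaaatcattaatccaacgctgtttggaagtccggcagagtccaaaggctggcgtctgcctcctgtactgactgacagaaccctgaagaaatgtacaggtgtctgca
Gm30925 (chr8:115830270-115830569, plus strand, GATA match TTATCT): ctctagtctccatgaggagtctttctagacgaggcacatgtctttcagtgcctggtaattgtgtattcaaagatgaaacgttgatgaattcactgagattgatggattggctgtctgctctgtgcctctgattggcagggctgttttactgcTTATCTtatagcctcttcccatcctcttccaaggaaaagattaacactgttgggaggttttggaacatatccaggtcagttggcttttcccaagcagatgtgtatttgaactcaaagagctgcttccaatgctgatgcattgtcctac
Gm31037 (chr8:115856003-115856302, plus strand, no match): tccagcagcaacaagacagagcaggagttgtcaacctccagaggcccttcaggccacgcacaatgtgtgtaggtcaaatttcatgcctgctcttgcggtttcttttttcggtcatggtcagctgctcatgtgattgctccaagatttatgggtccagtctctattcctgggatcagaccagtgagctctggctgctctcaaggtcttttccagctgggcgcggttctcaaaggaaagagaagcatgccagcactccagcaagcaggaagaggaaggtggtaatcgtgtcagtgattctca

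Both strands were searched. The GATA letters AGATAA were in 2 of the 11 windows and in 11.2% of all 32817 RefSeq start windows of 300 bases. The TEAD letters GGAATG were in 2 windows, both of Gm36309 and overlapping, and in 14.7% of all. FOXA (TGTTTAC) was in 1 window and in 3.65% of all, and SOX (ACAATGG) in 1 and in 3.67%. With 11 windows these are descriptions of the letters printed. The members that carry them were near genes of unlike RNA: Gm32546 lay in a member 58377 bp from Ankef1, whose RNA was 0.10 times as high in the class as in the other nuclei, and Gm36309 in a member 22140 bp from Sytl3, whose RNA was 6.24 times as high.

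Start windows of the nearest genes were searched for the same letters. RefSeq windows were found for 197 of the 275 nearest genes whose RNA was at least 2-fold higher in the class, giving 286 windows. AGATAA was in 7.34% of them (4.60 to 11%), the HNF4 letters CAAAGTCCA in 1.40% (0.382 to 3.54%, against 0.475% of all windows), and the TEAD letters in 18.2% (13.9 to 23.2%). The HNF4 and TEAD intervals include the share of all windows. The GATA interval ends just below it, but windows of the same gene can overlap, so these intervals may be too narrow. Over the 890 windows of all nearest genes AGATAA was in 7.53%.

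Because the fold chose the members, it is given as a description. Folds ran from 8.28 to 16.1 with a median of 9.20, against a median of 3.20 over the eligible peaks. The median member had 15.7 CPM in the class (7.86 to 98.5) and 1.65 CPM in the other nuclei (0.514 to 10.8). The last member, chr5:107765375-107766290 near Gm26692, had a fold of 8.28 (200 class counts, 95% interval 6.50 to 10.5). The first peak outside, chr16:45951979-45952930 near Plcxd2, had 8.28 as well (535 class counts, 7.16 to 9.55), so the folds had no gap at the limit.

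The 10 members with the highest folds lay near genes of many kinds. The highest was chr3:90976403-90976949, with 105 class counts and 115 other counts, a fold of 16.1 (11.1 to 23.3). Its nearest tested gene, S100a6, a calcium-binding protein, was 363098 bp away. The second, chr2:156798422-156799251, had 142 and 158 counts, a fold of 15.8 (11.5 to 21.6), 23002 bp from the myosin light chain gene Myl9. Neither gene was raised in class RNA, S100a6 being at 9.05 RNA CPM in the class and 23.8 in the others, and Myl9 at 0.852 and 8.24.

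The next members by fold were near Sgk1, Tyw1, Nid2, Zik1, Acot4, Tnpo1, 0610040J01Rik and Esrrb, with folds from 14.5 down to 13.3. Of the 10 highest, those near Tnpo1 and Esrrb had 402 and 376 class counts. The rest had 105 to 153, near the minimum of 100. Among those genes RNA was 6.81 times as high in the class for Acot4, an acyl-CoA thioesterase (8.73 against 1.28 RNA CPM), and 6.29 times for 0610040J01Rik (92.7 against 14.8). Nid2, a basement membrane nidogen, was 2.81 times as high (240 against 85.5). The kinase Sgk1 was at 1.51 times, Tyw1 at 1.06 and the import receptor Tnpo1 at 0.93. Esrrb, a nuclear receptor of trophoblast stem cells, was at 0.094 times (2.56 against 27.3), although the member 25126 bp from its start, chr12:86335091-86335991, had a count in 23.7% of class nuclei and 2.07% of other nuclei. That member had no count in a set of 149 extraembryonic ectoderm nuclei, where Esrrb stood at 302 RNA CPM, and a count of 0 allows up to 1.04 CPM there. Esrrb is among the marker genes that picked this set, so its high RNA there follows from that choice. These nuclei were part of the comparison group, so the fold favoured members with few counts in them. Among the members 584 had none, and the share of all eligible peaks with none was not taken. The pair of values is therefore a description and does not show how the member relates to Esrrb.

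As a group the members took 1.87% of all class peak counts and 0.200% of the others'. Per nucleus the share was a median of 1.90% in the class, from 0.161 to 2.88%, and 0.0434% in the others, with a 90th percentile of 0.763%. A class nucleus had a count in a median of 168 of the 1000 members, and a member had a count in a median of 92 of the 650 class nuclei. In 20 class nuclei the share was under 1%, and 9 of those were among the 16 doublet calls. The median share was 0.982% in the doublet calls and 1.91% in the rest of the class. The part of doublets in the low values was not tested beyond this.

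The share fell gradually with the rank of a nucleus by the 5-gene score. It was a median of 1.97% over ranks 1 to 250, 1.89% over 251 to 500 and 1.76% over 501 to 750, a bin that crosses the class limit at rank 650. It was then 1.51% over ranks 751 to 1000, 1.22% over 1251 to 1500 and 0.718% over 1751 to 2000. Farther down it was 0.108% over 2251 to 2500 and 0.0371% beyond rank 3000. Doublet calls numbered 1 over ranks 1 to 250, 67 over 1501 to 1750 and 12 over 2501 to 2750. Their part in the middle shares was not tested. The score had no step at the class limit, being 1.516 at rank 650 and 1.515 at rank 651, and 90 class nuclei and 106 others lay within 0.05 of that limit. Of the other nuclei, 749 had a share above the 5th percentile of the class (1.19%) and 168 above its median. The nuclei compared with the class held many with open members. Against nuclei beyond rank 2500 only, a comparison added after seeing these values, the peaks picked by the same rule had a median fold of 44.6, and 651 of the 1000 members were among them.

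**Figure D1:**
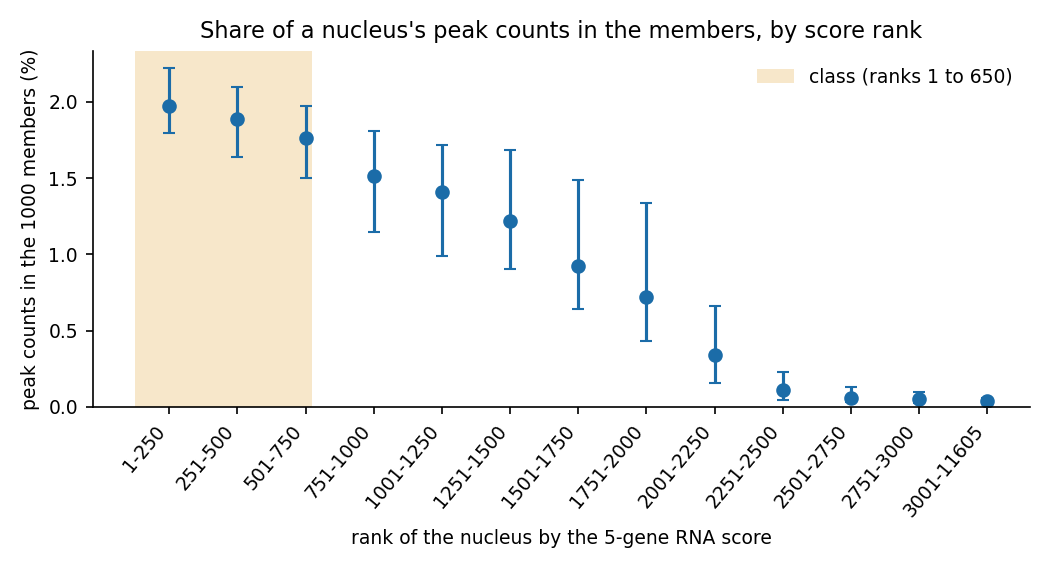
Median share of a nucleus's peak counts that fell in the 1000 members (y axis, percent; bars, quartiles) against the nucleus's rank by the 5-gene RNA score (x axis, bins of 250 and 1 bin beyond rank 3000). The shaded class, which the rule used, ends at rank 650, and the median falls from 1.97% in the first bin to 0.0371% beyond rank 3000.

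Barcodes outside the depth range had no part in choosing the members and gave a reading that the rule did not use. Among those with at least 1000 UMIs and 1000 peak counts, 57 had a score at or above the lowest class score and 2234 a lower one. The members took 1.20% of peak counts in the 57 and 0.391% in the 2234, a ratio of 3.07 (95% Poisson interval 2.99 to 3.15). Per barcode the median share was 1.61% in the 57 and 0.146% in the 2234, a wider difference than that of the summed counts. By member, 919 of 1000 had a higher CPM in the 57, against 71.5% of all eligible peaks, and the median fold was 2.99 against 1.5. The 57 comprised 20 barcodes above 30000 UMIs (share 1.17%), 9 under 3000 UMIs (1.20%) and 28 in the UMI range with under 2000 peak counts (1.93%). The 20 barcodes above 30000 UMIs held 845325 of the 925043 peak counts of the 57. The doublet caller marked 13 of the 57, 8 of them among those 20, and 364 of the 2234. Without doublet calls the ratio was 3.47. These barcodes come from the same library, the low ones had a median of 2653 UMIs, and the other nuclei in the depth range had a median share of 0.0434%.

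The members were next read in 9 sets of up to 150 other nuclei, each highest for the RNA of a marker list, with nuclei in more than 1 set removed. The rule had used these nuclei as part of the comparison group, so their levels are descriptions. Levels are the members' share of peak counts as a percent of the class's share, with 95% Poisson intervals on estimated fragments. Peaks within 1000 bp of gene starts, given for scale, were between 90.2 and 104% of the class level in all 9 sets.

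In 7 sets of embryonic, mesodermal and trophoblast lists the members were nearly closed. The level was 2.0% of the class (1.85 to 2.16%) in the extraembryonic ectoderm set, 2.1% (1.94 to 2.27%) in epiblast and 2.18% (2.03 to 2.34%) in embryonic mesoderm, and these intervals overlap. The node and definitive endoderm set, whose list holds mostly node and axial genes such as Chrd, Noto, Foxa2 and T, was at 2.45% (2.27 to 2.65%). It had Sox17, an endoderm factor, at 40.1 RNA CPM against 41.2 in the class and 33.3 over all other nuclei. Sox17 was at 186 in the embryonic and anterior visceral endoderm set. The haemato-endothelial set stood at 3.45% (3.24 to 3.67%), the ectoplacental cone and giant cell set at 4.29% (4.06 to 4.54%) and the extraembryonic mesoderm set at 4.33% (4.10 to 4.56%). In the ectoplacental cone set 12 of 143 nuclei were doublet calls, against 0 to 5 in the other sets. Without doublet calls, and with members chosen anew, the extraembryonic mesoderm set fell to 2.92%, below the haemato-endothelial set at 3.31% and the ectoplacental set at 3.45%, so the order of these 3 sets is not settled.

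The embryonic and anterior visceral endoderm set held 143 nuclei with RNA of its own list: Lefty1 stood at 656 RNA CPM, Cer1 at 616, Otx2 at 412, Hhex at 231 and Sfrp5 at 169, and the junction protein gene Amot led with 4076. It also had RNA of carrier genes shared with the class: Apob was at 656, Apoa1 at 629 and Ttr at 504, where the epiblast set, which should lack them, had 112, 171 and 125. These carriers were lower than in the class, where Apob was at 2903, Apoa1 at 1701 and Ttr at 1009. The absorptive genes were also lower than in the class, to unlike degrees. Lrp2 was at 32.1 against 1157 in the class and 184 in epiblast, and Cubn at 211 against 9225 and 98.6. Amn was at 155 against 541 in the class and 43.1 in epiblast, and Dab2 at 397 against 2135 and 56.7. The members stood at 6.10% of the class level there (5.79 to 6.42%), above the epiblast set's interval. With members chosen on estimated fragments it was 10.2%, and with at least 200 class counts 10.3%. Its 12-gene visceral endoderm RNA was 2900 RNA CPM against 11240 in the class, 818 in the epiblast set. By member, 392 of 1000 had no count in this set, where a count of 0 allows up to 1.25 CPM. The share of all eligible peaks with no count there was not taken, so the 392 cannot be set against a background. By level, 1 member reached 0.5 of the class level, against 47.9% of eligible peaks. That 1 was chr6:52485924-52486742, 153647 bp from Hibadh, with 4.15 CPM against 8.09 in the class.

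The set scored on 8 parietal endoderm genes had far more member accessibility, at 51.3% of the class level (50.4 to 52.2%). Parietal endoderm is the sister lineage that lays down Reichert's membrane, and the set was led by basement membrane genes, Lama1 at 3031 RNA CPM, Col4a1 at 2072, Sparc at 1837 and Col4a2 at 1773. Since it also held class RNA, it is called the basement-membrane set: 54 of its 149 nuclei had a class score above 1, its 12-gene visceral endoderm RNA was 5150 RNA CPM, and Thbd, a parietal endoderm surface gene, had no UMI in the nuclei with a score of 0.6 or more, which allows up to 2.14 RNA CPM.

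The set was split by the class score, which contains Cubn and defined the class, so the rise of Cubn and of the members across the split follows from the rule and is a description. The 22 nuclei scored under 0.3 had Thbd at 204, Plat at 47.8, Sparc at 4619 and Lama1 at 7282 RNA CPM, with Cubn at 131, and their members took 0.167% of peak counts. The 20 nuclei scored 0.3 to 0.6 had Thbd at 80.4, Plat at 52.3, Lama1 at 5751, Cubn at 820 and a share of 0.450%. The 53 nuclei scored 0.6 to 1 had Thbd at 0, Plat at 11.8, Lama1 at 1769, Cubn at 2720 and a share of 1.16%. The 54 above 1 had Thbd at 0, Plat at 8.25, Lama1 at 1441, Cubn at 5058 and a share of 1.30%. The share was 1.87% in the class, where Plat was at 0.745, Lama1 at 115, Sparc at 233, Col4a1 at 415 and Srgn at 26.6 RNA CPM. Plat, Lama1, Sparc, Col4a1 and Srgn were thus above the class in each of the 4 score ranges of the set, and Thbd in the 2 lower ones. These genes are on the list that picked the set, so their levels above the class largely follow from that choice. The share was 0.0392% in the epiblast set. With all sets limited to scores under 0.5, the level of the set was 10.3%.

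By member, 420 of 1000 reached 0.5 of the class level in the basement-membrane set, where 77.4% of eligible peaks did. A member near 9130204K15Rik, chr11:79838252-79839074, had 52.9 CPM there and 35.9 in the class. The corresponding share of eligible peaks was 33.3% in epiblast, 34.0% in embryonic mesoderm, 37.5% in extraembryonic mesoderm, 36.9% in haemato-endothelial, 35.9% in node and definitive endoderm, 34.7% in extraembryonic ectoderm and 33.6% in ectoplacental cone and giant cell nuclei. No member reached that level in 5 of these 7. In the haemato-endothelial set 2 did, chr13:35220102-35220987 near Eci2 and chr6:54202223-54203168 inside Chn2, each at 6.10 CPM. In the ectoplacental set 2 did, near Gpbp1 at 5.56 CPM and inside A230056P14Rik at 7.65 CPM. Since the rule asked for low levels in these nuclei, the gap to the eligible peaks is set by it.

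**Figure D2:**
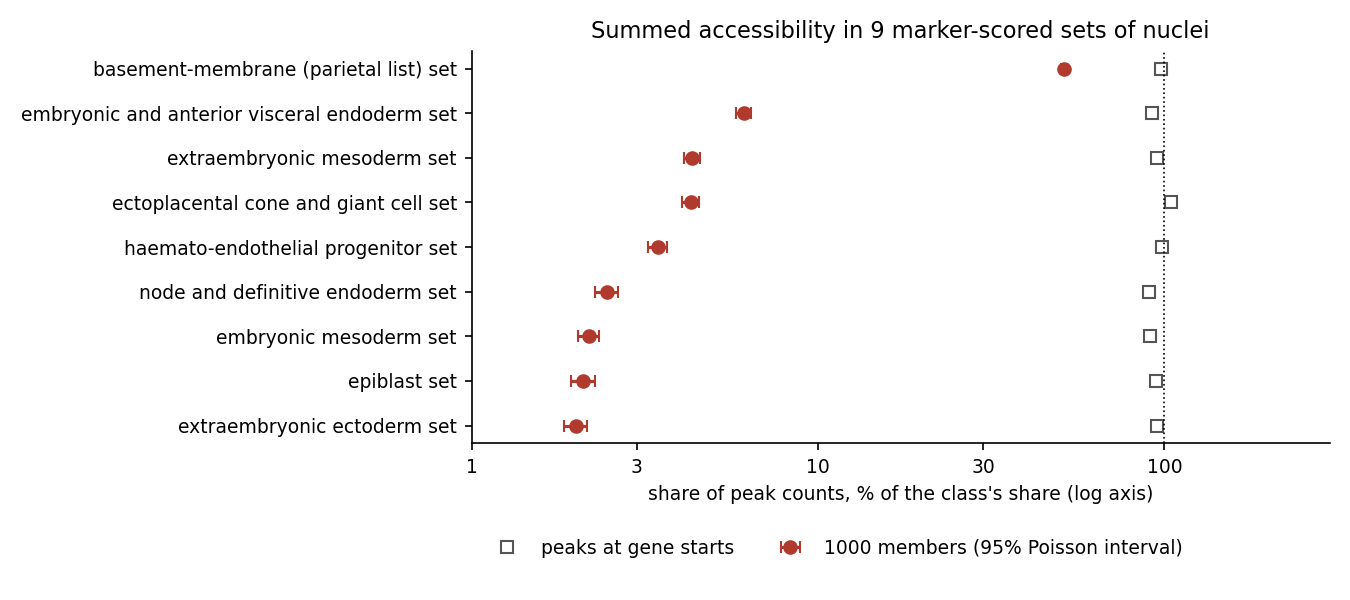
Summed share of peak counts in the 1000 members (filled points, 95% Poisson intervals) and in peaks within 1000 bp of gene starts (open squares), as a percent of the class's share on a log axis, in 9 sets of nuclei scored on marker RNA. The members are at 51.3% in the basement-membrane set, 6.10% in the embryonic and anterior visceral endoderm set and 2.0 to 4.33% in the others, while peaks at starts stay between 90.2 and 104%.

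**Figure D3:**
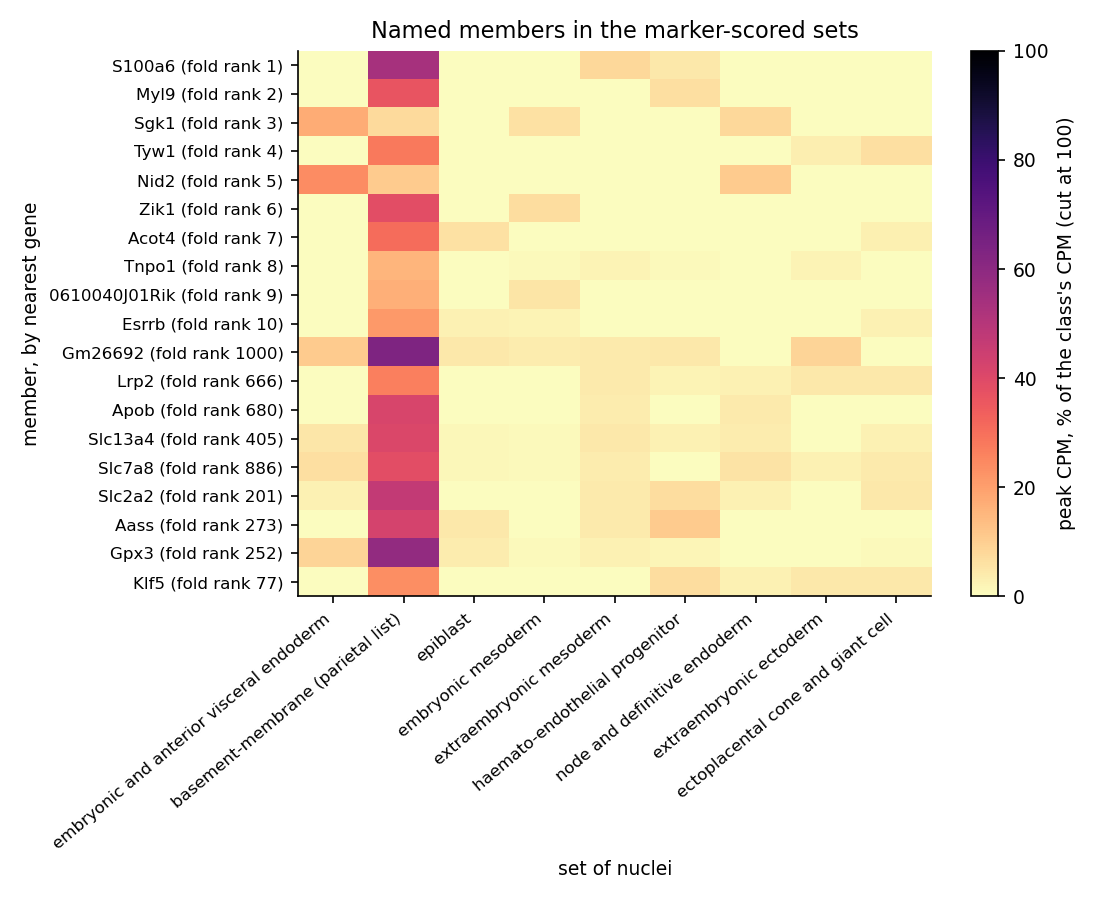
Accessibility of 19 named members (rows, by nearest gene and fold rank) in the 9 sets of nuclei (columns), as CPM in percent of the member's CPM in the class. The darkest column is the basement-membrane set, and most other entries are at or near 0.

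The members' nearest genes were then read in the RNA of the same nuclei. Each member was assigned the gene with the nearest start among the 5 class genes and 17665 others, each with at least 50 UMIs in class and other nuclei together. The 1000 members had 878 nearest genes, of which 768 had 1 member, 99 had 2, 10 had 3 and 1 had 4. The class was itself chosen on RNA, so these contrasts are descriptions, and the 4 nearest genes among the 5 class genes are left out. Of the other 874, 275 were at least 2-fold higher in the class, 31.5% (exact 95% binomial interval 28.4 to 34.7%), against 9.74% of all genes tested. Counting instead every gene with a start within 100000 bp of a member, 20.6% of 2214 were (18.9 to 22.3%), against 9.56% of 10594 genes that near only to other eligible peaks. At least 2-fold lower among nearest genes were 140, 16.0% (13.7 to 18.6%), against 27.2%. The median RNA fold was 1.31, against 0.82 over all genes tested.

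Genes nearest only to eligible peaks that were no members are a closer comparison than all genes tested, since those peaks are open in the class too. Of 5824 such genes 779 were at least 2-fold higher, 13.4% (12.5 to 14.3%), with a median fold of 0.90. A gene near both kinds of peak was counted with the members only, so this background lacks every gene that has a member. The same holds for the count within 100000 bp. The comparison by distance below counts peaks and does not have this limit. The share among genes with 2 or more members was 33.3% (24.6 to 43.1%, n = 108), and among genes with 1 member 31.2% (27.9 to 34.6%, n = 766), so the intervals overlap.

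The share fell with distance, here counted over members and with the class genes kept. Of the 256 members within 10000 bp of the nearest start, 44.9% (38.7 to 51.2%) had a nearest gene 2-fold higher in the class, against 21.2% of other eligible peaks at that distance. The share was 33.2% (28.7 to 37.9%) at 10000 to 50000 bp, against 20.4%. It was 21.4% (15.0 to 29.0%) at 50000 to 100000 bp and 19.0% (13.4 to 25.6%) beyond, against 16.3% and 12.7%. The intervals of members and other eligible peaks were apart in the first 2 bins and overlapped in the others. They treat peaks as independent, but peaks with the same nearest gene share its RNA, so these intervals may be too narrow. Counting any 2-fold higher gene other than the class genes with a start within 100000 bp, 39.2% of members had one and 33.5% of other eligible peaks. Of the 680 members whose nearest gene, class genes included, was not 2-fold higher, 108 (15.9%) had such a gene within that distance. The matching share for other eligible peaks was not taken, so the 15.9% cannot be set against a background.

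**Figure D4:**
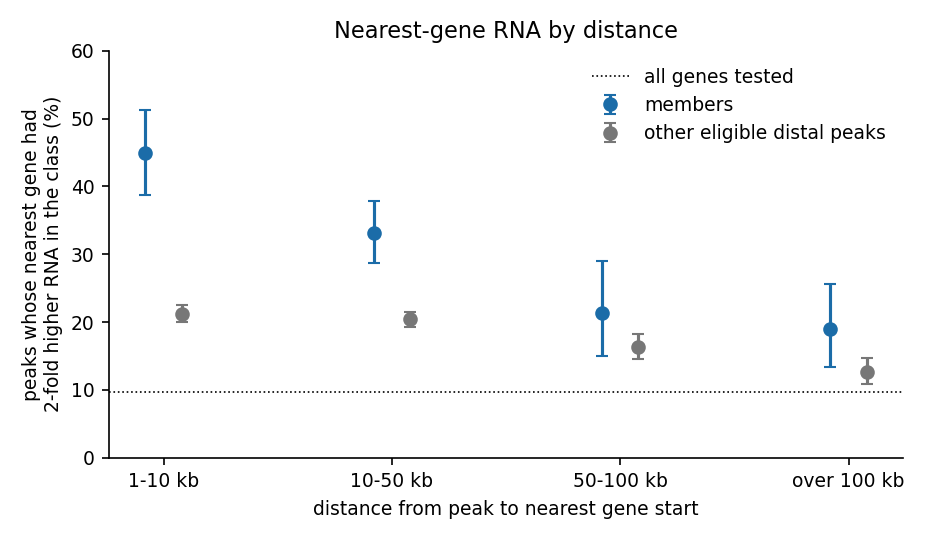
Percent of peaks whose nearest gene had at least 2-fold higher RNA in the class (y axis), by distance to that gene's start (x axis), for members and other eligible distal peaks, with exact 95% binomial intervals; the dotted line is the share of all genes tested, 9.74%. Members within 10000 bp are at 44.9% and other eligible peaks there at 21.2%, against 19.0% and 12.7% beyond 100000 bp.

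Members and other eligible peaks were alike in width and in their share inside genes, while members lay farther from gene starts. Members were a median of 879 bp wide (256 to 1086) and other eligible peaks 885. The median distance to the nearest gene was 25590 bp for members (quartiles 9783 and 66920, highest 1545000) and 17490 bp for other eligible peaks, and 17.4% of members against 9.73% lay beyond 100000 bp. Inside a RefSeq gene lay 59.2% of members (56.1 to 62.3%) and 58.5% of other eligible peaks. Exon and intron annotation was not used here. Members made up 10.6% of the eligible peaks on chromosome 6, the highest share, and 4.36% on chromosome 11, the lowest.

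Most members stood alone. Joined across gaps under 50000 bp, they formed 801 runs of 1 member, 84 of 2, 9 of 3 and 1 of 4. The run of 4, chr14:63093324-63150541, lay around Ctsb and Fdft1 with 83.9 CPM in the class and 8.93 in the others. Ctsb, the lysosomal protease cathepsin B, was at 550 RNA CPM in the class and 135 in the others, 4.07 times as high (3.94 to 4.20), and Fdft1, squalene synthase, at 0.90 times. A run of 3 at chr2:69603600-69618880 lay between Lrp2 and Bbs5 with 59.6 CPM in the class and 6.51 in the others. A run at chr8:115829828-115856904, which holds the Gm30925 and Gm31037 windows printed above, lay 122034 bp from Maf, a basic leucine zipper factor whose RNA was 303 RNA CPM in the class and 41.2 in the others, 7.35 times as high (7.03 to 7.70). Maf was nearest to 1 of its 3 members, and Gm45733, with 4 UMIs in the class and 86 in the others, to the other 2. The other 2 of the 5 leading runs lay near genes with almost no RNA: chr6:55323928-55358138 near Gm44073 (0 UMIs in the class, 65 in the others) and chr14:118747423-118767055 near Cldn10 (5 and 148 UMIs).

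The gene with most members was Asap1, a regulator of Arf GTPases and the cytoskeleton, with 4. All 4 of its eligible peaks were members, with folds of 8.75 to 11.2 at 25422 to 181548 bp from its start. Its RNA was not raised: it was 168 RNA CPM in the class and 232 in the others, 0.72 times as high (0.69 to 0.76), and 426 in the embryonic mesoderm set. Hmcn1, the extracellular matrix protein hemicentin, had 3 members 98654 to 171412 bp away and RNA of 4.15 against 43.5 RNA CPM, with 156 in the haemato-endothelial set. Olfr986, an olfactory receptor gene, and Gm4035 had 3 members each and 1 UMI each in the class. For these genes the nearest start and the RNA went different ways.

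Among the others with 3 members, Atp1b1, a subunit of the sodium-potassium pump, was at 342 RNA CPM in the class and 82.7 in the others, 4.14 times as high (3.98 to 4.30). Phlpp1, a phosphatase, was at 1.86 times (353 against 190) and Fam107b at 1.51 times (41.6 against 27.6). Of 97 tested genes with 2 members, 33 were at least 2 times as high, to be read against 9.74% of all genes tested and 13.4% of genes nearest only to other eligible peaks, and the median was 1.54 against 0.82 over all genes tested. The 9 with the most class RNA, a choice that favours high folds, had Slc13a4 at 8.18, Apob at 6.21, Ctsh at 5.20, Arid5b at 4.77, Tsc22d1 at 2.65, Tlk1 at 1.95, Vti1a at 1.82, Erc1 at 1.66 and Zfand3 at 1.57. Ctsh is a second lysosomal protease, and its members lay 1607 and 12657 bp from its start.

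**Figure D5:**
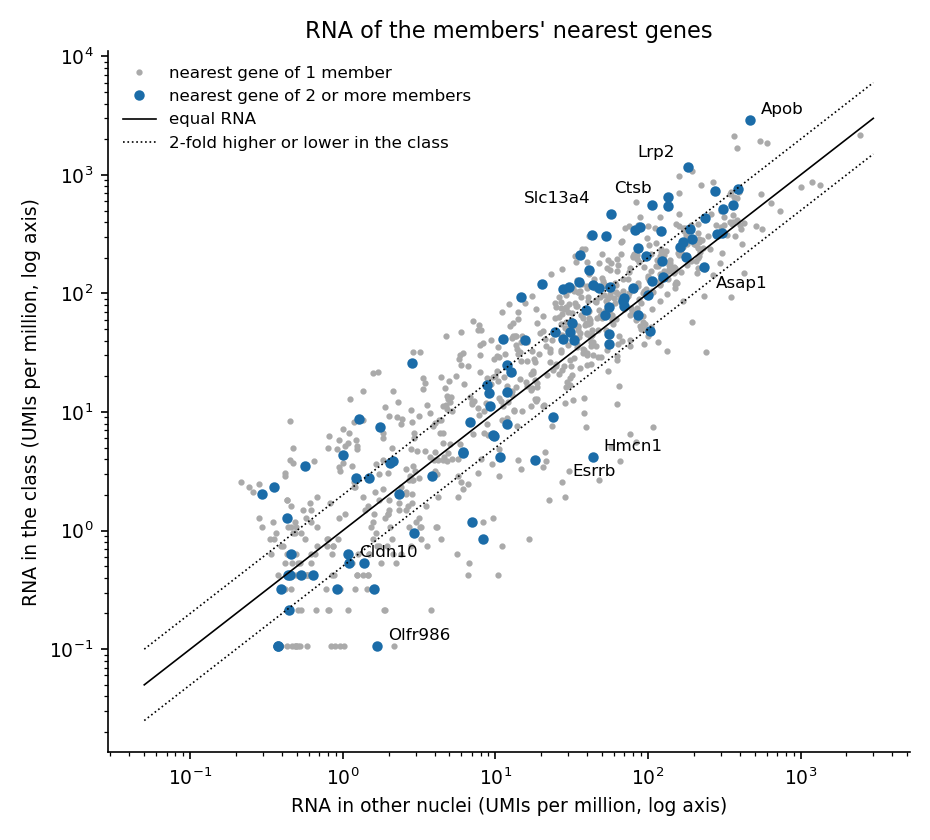
RNA of 865 nearest genes in the class (y axis) against the other nuclei (x axis), in RNA CPM on log axes, with 9 genes that had no UMI in a group and the class genes left out. Points above the upper dotted line are at least 2-fold higher in the class, as Apob, Lrp2, Ctsb and Slc13a4 are, and Asap1, Hmcn1 and Esrrb lie below the line of equal RNA.

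By function, 7 lists of genes were read for members, chosen for roles known in visceral endoderm or in signals around it, with earlier results of these data known. Not all of these genes had RNA in the class. In all 40 members were nearest to a listed gene, and of the 286 eligible peaks nearest to listed genes 14.0% were members, against 7.42% overall. Without the class genes it was 34 of 268 (12.7%). RNA counts below are of genes at least 2-fold higher or lower in the class, to be read against 9.74% and 27.2% of all genes tested. They leave out the class genes, while the member counts and shares of each list keep them.

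Among uptake receptors and their partners, 7 of 14 tested genes were higher and 2 lower, and 4 genes had 6 members, 12.5% of the list's 48 eligible peaks. The class gene Cubn (1 of 8) is in that share. Lrp2, which encodes megalin, had 3 members of its 7 eligible peaks. The most open, chr2:69603600-69604521, lay 17535 bp from its start with 405 class counts and 805 other counts, 31.8 against 3.6 CPM, a fold of 8.85 (7.47 to 10.5). It had a count in 26.9% of class nuclei and 3.29% of others, no count in the embryonic visceral endoderm set, and 8.52 CPM in the basement-membrane set. Lrp2 RNA was 1157 RNA CPM in the class and 183 in the others, 6.33 times as high (6.19 to 6.48), 867 in the basement-membrane set and 184 in epiblast. In the epiblast set, with that Lrp2 level, the member had 0 CPM. The rule favoured low counts in the epiblast and embryonic visceral endoderm nuclei, so the member's levels there are descriptions. In the epiblast set 553 members had no count, and the share of all eligible peaks with none was not taken. Dab2, the adaptor that clusters these receptors, had 1 member 154084 bp away and RNA at 5.80 times, and Cubn, a class gene, 1 member 3904 bp from its start with a fold of 8.70.

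Among plasma carriers and apolipoproteins, 18 of 19 tested genes were higher and 0 lower, and 5 genes had 6 members, 20.7% of their 29 eligible peaks. Apob, the structural protein of lipoproteins, had 2 eligible peaks, both members. The more open, chr12:7973352-7974256, lay 3392 bp from its start with 226 class counts and 451 other counts, 17.8 against 2.01 CPM, a fold of 8.82 (7.0 to 11.1). It had no count in the embryonic visceral endoderm set, where Apob RNA was 656 RNA CPM against 2903 in the class. The second, 10638 bp away, had 12.9 CPM in the class and 0.831 in that set. These nuclei were part of the comparison group, so the rule favoured low counts in them. Both levels are therefore descriptions and do not show how the members relate to Apob there. Apoa1 had 1 member among 9 eligible peaks, inside Sik3 and 78640 bp from its start. Mttp, which loads lipid onto apolipoprotein B, and the fibrinogen genes Fga and Fgg had 1 member each, with RNA at 5.10, 5.25 and 5.18 times. Ttr, Afp and Rbp4, at 3.56, 6.22 and 5.34 times, had none, and Rbp4 had no eligible peak.

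Among transporters 12 of 17 tested genes were higher and 1 lower, and 8 genes had 11 members, 22.4% of the list's 49 eligible peaks. The class genes Slc2a2 (2 of 5) and Abcc2 (1 of 2) are in that share. Slc13a4, a sulfate transporter, had a member inside the neighbouring 1700065J11Rik, chr6:35335286-35336204, which was the most open of the named members: 671 class counts and 1247 other counts, 52.7 against 5.57 CPM, a fold of 9.47 (8.28 to 10.8), with a count in 40.2% of class nuclei and 4.76% of others. Slc13a4 RNA was 471 against 57.6 RNA CPM. Slc7a8, an amino acid transporter, had 2 eligible peaks, both members. The more open, inside its gene at chr14:54742036-54742955, had 26.1 against 3.08 CPM, a fold of 8.48 (7.02 to 10.2), and its RNA was 7.21 times as high (6.89 to 7.54). Slc2a2, the glucose transporter GLUT2 and a class gene, had 2 members, the more open at chr3:28685326-28686196 with 15.8 against 1.54 CPM, a fold of 10.3 (7.99 to 13.1). The glucose transporter Slc2a3 and the metal transporters Slc39a8 and Slc11a2 had 1 each, with RNA at 3.54, 4.12 and 2.46 times.

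In intermediary metabolism 4 of 14 tested genes were higher and 4 lower, and 6 genes had 8 members, 27.6% of the list's 29 eligible peaks. The class gene Aass (2 of 3) is in that share. Aass, which begins lysine breakdown and is a class gene, had 2 members inside its gene, the more open at chr6:23126767-23127660 with 16.6 against 1.68 CPM, a fold of 9.87 (7.76 to 12.5). Gpx3, a secreted glutathione peroxidase, had 2 members 4579 and 7608 bp from its start. The more open, chr11:54897369-54898193, had 476 class counts and 837 other counts, 37.4 against 3.74 CPM, a fold of 10.0 (8.53 to 11.7), and Gpx3 RNA was 113 against 30.6 RNA CPM. Rdh10, an enzyme of retinol metabolism, had 1, with RNA at 2.54 times. Cyp26a1, which degrades retinoic acid, had 1 member 169491 bp away, and its RNA was lower in the class at 52.2 against 104.5 RNA CPM.

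Among endoderm transcription factors 11 of 25 tested genes were higher and 7 lower, and 6 genes had 7 members, 9.46% of their 74 eligible peaks. Hnf4a, the nuclear receptor that drives the hepatocyte-like programme, had a member inside its gene, chr2:163560115-163560935, with 477 class counts, 37.5 against 4.05 CPM, and RNA of 118 against 19.9 RNA CPM, 5.94 times as high (5.53 to 6.37). Prdm1 had a member inside its gene with a fold of 11.6 and RNA at 2.97 times, and Sox7 a member 92522 bp away with RNA at 2.83 times. Nr5a2 had a member inside its gene with the 11th highest fold, 13.2, and RNA of 4.69 against 3.05 RNA CPM. Klf5 had 2 members 236391 and 249090 bp away. The more open, chr14:99535545-99536444, had 15.7 against 1.39 CPM, a fold of 11.3 (8.76 to 14.6), while Klf5 RNA was 37.5 against 55.2 RNA CPM, 0.68 times as high (0.61 to 0.76), and reached 270 in the basement-membrane set and 243 in extraembryonic ectoderm.

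Secreted signals and inhibitors had 1 member among 48 eligible peaks (2.08%), near Bmp2 at 304009 bp, whose RNA was at 1.09 times. Of 17 tested genes of that list 4 were higher and 10 lower in the class. The RNA editing and RNA binding list had 1 member among 9 eligible peaks, near Rbm47, whose RNA was 2.33 times as high (2.25 to 2.42), with 1 of 7 tested genes higher and 1 lower.

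Outside the lists, the nearest genes with the highest RNA fold on at least 50 class UMIs, apart from class genes, were Abcb11, the bile salt export pump, at 18.6 times (79 and 61 UMIs, 13.2 to 26.4), Gm30624 at 13.6 times, the glycosyltransferase B3galt5 at 12.7 times (10.5 to 15.5) and Myom3 at 11.5 times. These 4 were picked after their values were seen. Low RNA also occurred beside members: Etv1, an ETS family factor, was at 5.54 against 83.9 RNA CPM with a member 543075 bp away.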

How the data were processed

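Nuclear RNA and chromatin accessibility were read in 2 samples, 1 library per assay of the same nuclei. The authors deposited raw counts, UMI counts per gene and counts per peak, for 15341 barcodes carrying both assays. The matrix was written by Cell Ranger ARC 2.0.0, per the file headers, and the build was mm10, per the submitters' processing notes. The peak caller and barcode filters are not stated there or in the labels. Of nonzero peak counts 86.4% were even, as when both fragment ends are counted, and intervals on peaks used estimated fragments (the count divided by 2, rounded up).

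The members, gene lists and groups were chosen with earlier results of these data known. Class and member rules are in the text. Depths were 9392465 UMIs and 12729613 peak counts in the class, 134908618 and 223923614 in the others. Poisson and exact binomial intervals (95%) cover counting error only. With 1 library per assay no test was made. Doublets were called with Scrublet in scanpy 1.11.5 (expected rate 0.1; 1154 barcodes) and kept, except in 2 alternatives.

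Named members were the 10 highest folds, the last inside and the first outside the limit, and the most counted member of each listed gene with 2 or more. Named genes were the 20 with most members and those of the 10 highest members and the lists; named runs were the 5 with most members, ties (9 runs of 3) broken by class counts. Extremes in a set and members of listed genes with 1 member were picked after their values were seen. Motifs were searched only in RefSeq start windows, as no genome was used here. The ranking was tested on simulated data. Python 3.11.15, numpy 2.4.6, scipy 1.17.1 and pandas 2.3.3 were used. Some results are not reported here.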

Additional observations from a re-analysis of the deposited data

How the results depend on the processing

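The median fold of the members was 7.83 to 10.5 under 9 other settings, and 44.6 against nuclei beyond score rank 2500. The 9 values lie within 7.30 to 11.8, the median limits of the single-member counting intervals. That span is the counting error of a typical member, and that of the median was not taken. Membership depended on the settings: 630 of 1000 members were shared with a class of 400, 535 with estimated fragments, 503 with at least 200 class counts and 651 against ranks beyond 2500, and 750 to 922 under the others that could change the ranking. Scaling by counts in peaks at starts multiplies every fold by the same factor, so it could change neither the members nor their nearest genes. The share of nearest genes 2-fold higher in the class was 27.4% with peaks over 5000 bp from starts, 28.3% with at least 50 class counts, 28.4% with at least 500 UMIs, 20.6% over all genes within 100000 bp and 35.6% against ranks beyond 2500, and 30.7 to 33.9% under the others. Outside the depth range the ratio was 2.89 when scaled by counts in peaks at starts and 3.47 without doublet calls, a setting added after seeing the data.

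The level in the embryonic and anterior visceral endoderm set was 8.39% of the class with a class of 400, 10.2% with estimated fragments, 5.33% with at least 50 and 10.3% with at least 200 class counts, 6.75% over 5000 bp, 6.60% scaled by peaks at starts, 7.36% in sets of 300 and 5.54% with scores under 0.5 (this limit and rank 2500 were chosen after seeing the data). The basement-membrane set stood, in the same order, at 53.8, 60.9, 47.2, 61.7, 52.8, 52.4, 56.4 and 10.3%. Of the 84 values of the other 7 sets, 49 lay within the interval of the reported one, and all were between 1.92 and 5.36%.

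Other motif windows, on the sequence of all members, were not run. No analysis across replicates was possible because each assay had 1 library.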
